A study of Homo sapiens with 21 samples.

Results

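Nilotinib, a BCR-ABL tyrosine kinase inhibitor, was added at 1 µM to Hs578T cells that also received 0.1 µM THZ531, and the RNA of these cells was compared with that of cells given 0.1 µM THZ531 alone. The comparison used 6 of the 21 libraries, 3 of the combination treatment and 3 of 0.1 µM THZ531. It covered 16036 of the 28395 genes in the count table, namely all that passed a filter on low counts. The established line Hs578T comes from a triple-negative breast cancer and looks mesenchymal. All 7 groups were wild-type cells collected 8 h after treatment. The other groups were treated with DMSO, 1 µM nilotinib, 3.16 µM lapatinib, lapatinib with 0.1 µM THZ531, and 1 µM THZ531, each with 3 libraries. The comparison asks which genes respond to a low dose of THZ531 once nilotinib is present, and which of these had already begun to change without it.

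THZ531 is a covalent inhibitor of CDK12 and CDK13. These kinases partner with cyclin K and phosphorylate the tail of RNA polymerase II, so that the polymerase can travel to the end of a gene. When they are inhibited, transcripts of many genes end early at polyadenylation signals within introns, and DNA repair genes are known for their loss. ABCG2, the gene the study is about, encodes a membrane pump that exports drugs from cells, and nilotinib is among the kinase inhibitors known to block that pump.

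Total counts lay between 105036702 and 106791643 in the 0.1 µM THZ531 libraries and between 101967991 and 104639800 in the combination libraries. The mesenchymal markers vimentin (*VIM*), *CDH2*, *ZEB1*, *FN1*, *CD44* and *AXL* stood at 185 CPM (a count scaled to a common library total after TMM normalisation) or above in every library. *EPCAM*, *PGR*, *CD3E*, *CDH5* and *ALB* had 0 to 12 counts per library. Other markers looked for as low or absent passed the filter at low levels. *ESR1* had 9 to 59 counts per library, *CDH1* 12 to 41, the endothelial *PECAM1* 23 to 67 and the blood cell gene *PTPRC* 89 to 233 (at most 2.45 CPM). Nilotinib replicate 1 stood apart from the other nilotinib libraries in stress genes, with *ATF4*, a transcription factor of the amino acid response, at 261 CPM against 116 and 118. Values that rest on the nilotinib group are therefore also given without it where they moved. The RNA came from independent experiments but the labels do not say which libraries of different groups belong to the same experiment. In bulk RNA, fewer cells of one state and less RNA per cell cannot be told apart.

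Adding nilotinib to 0.1 µM THZ531 lowered 3036 genes (18.9% of those tested) and raised 1047 (6.53%) beyond a log2 fold change (FC) of 1 (adjusted p under 0.05, edgeR quasi-likelihood test with Benjamini-Hochberg adjustment). Among the falls were zinc finger transcription factors such as *ZNF564*, genes of homologous recombination such as *SLX4*, and E2F genes. Among the rises were stress-induced and immediate-early genes such as *GADD45B*, *JUNB* and *FOS*. With no limit on size, 5713 genes (35.6%) were lower, 5505 (34.3%) were higher and 4818 did not pass the test, and the median log2 FC over all genes was 0.03. In 3007 of the 3036 lower genes and 984 of the 1047 higher ones, all 3 combination libraries lay beyond all 3 libraries of 0.1 µM THZ531. Genes next to the limit were *ZNRF3* (log2 FC −1.001, 13.6 CPM falling to 6.81) just inside it and *PYGO1* (−0.9997, 17.5 CPM falling to 8.77) just outside. Where genes overlapped on the genome, which 1153 of the called genes did, unstranded counting could not separate their reads.

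How far these genes had moved at 0.1 µM THZ531 alone was read from the comparison of that dose with DMSO, which shares its 3 libraries of 0.1 µM THZ531 with the comparison above. The dose alone lowered 691 genes (4.31%) and raised 286 (1.78%) at any size. A responding gene was called begun if it had passed the test at 0.1 µM in the same direction. It was called unshifted if it had not passed and the 95% interval of its log2 FC at 0.1 µM lay within 0.5 on either side of 0. Genes that had passed in the other direction were called opposite, and the rest, whose interval was too wide to tell, were called unresolved.

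Most of the downregulated genes were unshifted. Of the 3036, 1779 (58.6%) were unshifted, 235 (7.74%) had begun, 31 (1.02%) were opposite and 991 (32.6%) were unresolved. The 235 begun genes had a median log2 FC of −0.53 at 0.1 µM and fell by a further median of 1.70 on the log2 scale on adding nilotinib. The 1779 unshifted genes had a median of −0.01 at 0.1 µM and −1.55 on adding nilotinib. Among the 1047 upregulated genes only 99 (9.46%) were shown to be unshifted, 29 (2.77%) had begun and 28 (2.67%) were opposite. The other 891 (85.1%) were unresolved, and their median level of −2.56 log2 CPM was far below the 3.85 of the unshifted lower genes. The begun counts depended on single libraries. Without replicate 1, 2 or 3 of 0.1 µM THZ531 the falls that had begun numbered 125, 115 or 139, and without DMSO replicate 1 or 2 they numbered 145 or 127. The rises that had begun numbered 15 or 17 without replicate 1 or 2 of 0.1 µM THZ531, and 18 or 16 without DMSO replicate 1 or 2.

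**Figure D1:**
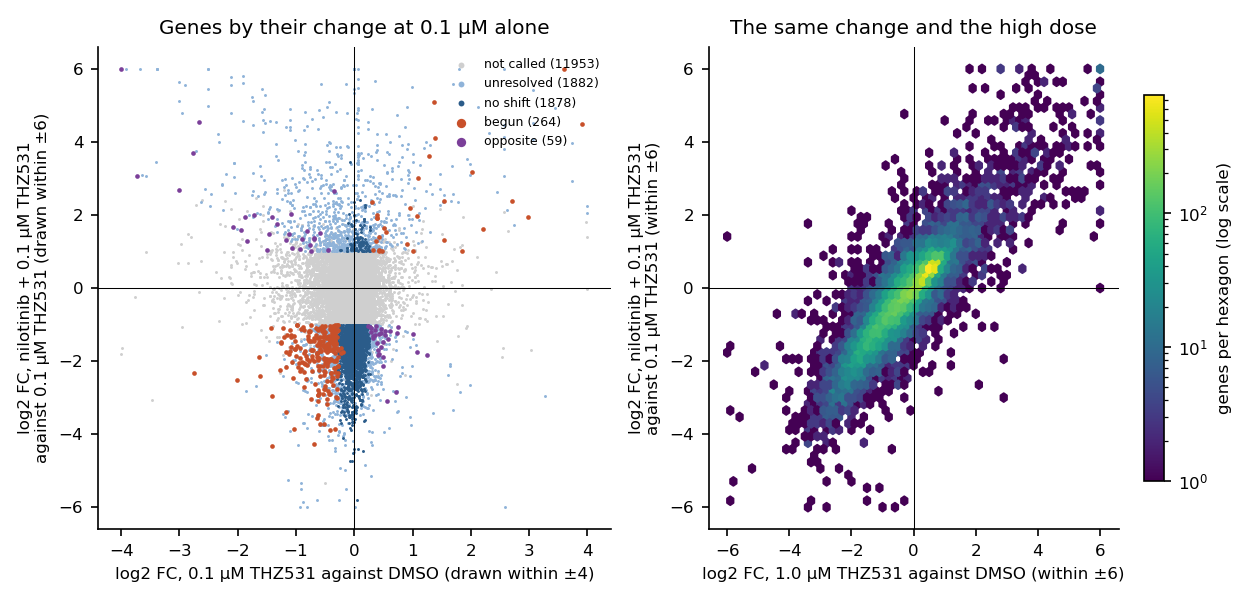
Each point on the left is 1 of 16036 genes, placed by its log2 FC at 0.1 µM THZ531 against DMSO (x) and by its log2 FC on adding nilotinib (y), and coloured by class ("no shift" for unshifted, "not called" for genes that did not pass both the fold limit and the test), with values beyond the axes drawn at their edge. The unshifted genes form a narrow column below 0, the begun genes lie to its left among the falls, and the axes share the 0.1 µM libraries. On the right the same y values are set against the log2 FC of 1 µM THZ531 against DMSO as counts of genes per hexagon, and the genes follow a rising band (Pearson r = 0.866).

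Several deep falls came from unshifted genes. *ZNF564*, a KRAB zinc finger gene on chromosome 19 (chr19:12525373-12551482, GRCh38), was at 9.72, 8.36 and 8.70 CPM in the 0.1 µM THZ531 libraries and at 0.356, 0.497 and 0.308 CPM in the combination libraries. The DMSO libraries stood at 9.78, 8.39 and 8.90 CPM and the nilotinib libraries at 9.91, 9.31 and 8.97 CPM, so that each of the single treatments overlapped with DMSO in range. Its log2 FC on adding nilotinib was −4.52 ± 0.18 (SE, adjusted p = 3.05e-14), against −0.02 ± 0.13 for 0.1 µM THZ531 alone (adjusted p = 0.963).

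*C21orf91*, a gene with a role in neural precursor cells, went from 15.3, 14.1 and 12.8 CPM to 0.702, 0.637 and 0.627 CPM (log2 FC −4.42 ± 0.14, adjusted p = 2.87e-15). Here too DMSO at 15.7, 12.7 and 13.8 CPM covered the same range as 0.1 µM THZ531. *IRF2*, a repressor of interferon-induced transcription (chr4:184387729-184474550), went from 15.7, 14.8 and 13.8 CPM to 0.540, 0.724 and 0.814 CPM, with DMSO at 14.9, 13.5 and 14 CPM. The log2 FC of *IRF2* was −4.41 ± 0.19 (adjusted p = 1.02e-13). The better expressed *WBP1L* lay at 69.6, 67.5 and 67.6 CPM with 0.1 µM THZ531 and at 5.22, 4.49 and 4.74 CPM in the combination (log2 FC −3.82 ± 0.12, adjusted p = 7.26e-15). *ZNF200* (−3.68) and *MED9*, a subunit of the Mediator complex (−3.66), were unshifted as well.

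Large falls also came from genes whose earlier change could not be resolved. *ZNF609* went from 24.0, 29.4 and 30.8 CPM to 0.951, 1.42 and 1.90 CPM (log2 FC −4.30 ± 0.26, adjusted p = 3.31e-11), and its DMSO libraries spread from 27.8 to 37.5 CPM. *PRR14L* (−4.17) and *ZNF175* (−3.98, overlapping *LINC01530*) were in this class as well, and *SLC5A10* (−4.11), which overlaps *FAM83G* and *GRAP*, was unshifted.

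The genes that had begun to fall at 0.1 µM formed a series of steps. *KRCC1* (chr2:88027205-88055783) was at 35.3, 30.5 and 35.0 CPM with DMSO, at 16.1, 15.7 and 13.0 CPM with 0.1 µM THZ531, and at 1.38, 1.47 and 1.39 CPM with the combination. None of these groups overlapped. The first step had a log2 FC of −1.17 ± 0.10 (adjusted p = 1.81e-06) and the second one of −3.40 ± 0.12 (adjusted p = 1.17e-14), while nilotinib alone left it at 36.5 to 42.5 CPM (adjusted p = 0.574).

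*NABP1*, which encodes a single-stranded DNA-binding protein of the repair machinery, stepped from 49.8, 43.6 and 42.3 CPM through 25.5, 24.8 and 21.5 CPM to 4.66, 5.4 and 5.32 CPM. Its steps were −0.92 ± 0.10 and −2.22 ± 0.10 (adjusted p = 1.71e-05 and 5.62e-13). *ERCC4*, the XPF nuclease subunit of nucleotide excision repair, stepped from 17.7, 16.1 and 17.4 CPM through 10.9, 11.1 and 11.2 CPM to 1.13, 1.00 and 0.836 CPM. *KAT14*, a histone acetyltransferase, fell from a mean of 15.8 ± 0.403 CPM (SD, n = 3) to 9.76 ± 0.300 at 0.1 µM and 0.507 ± 0.114 in the combination, although it overlaps *PET117*. In other begun genes the first step was about as large as the second. *MYPN*, a muscle sarcomere gene, had log2 FCs of −1.42 and then −1.10, *PSCA* had −1.09 and −1.33, and *APOLD1* had −0.99 and −1.01, with its second step under the fold limit in some alternative scalings. *PAFAH2* (−0.42 and −3.88) and *FSAF1* (−0.33 and −3.85) had small first steps.

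**Figure D2:**
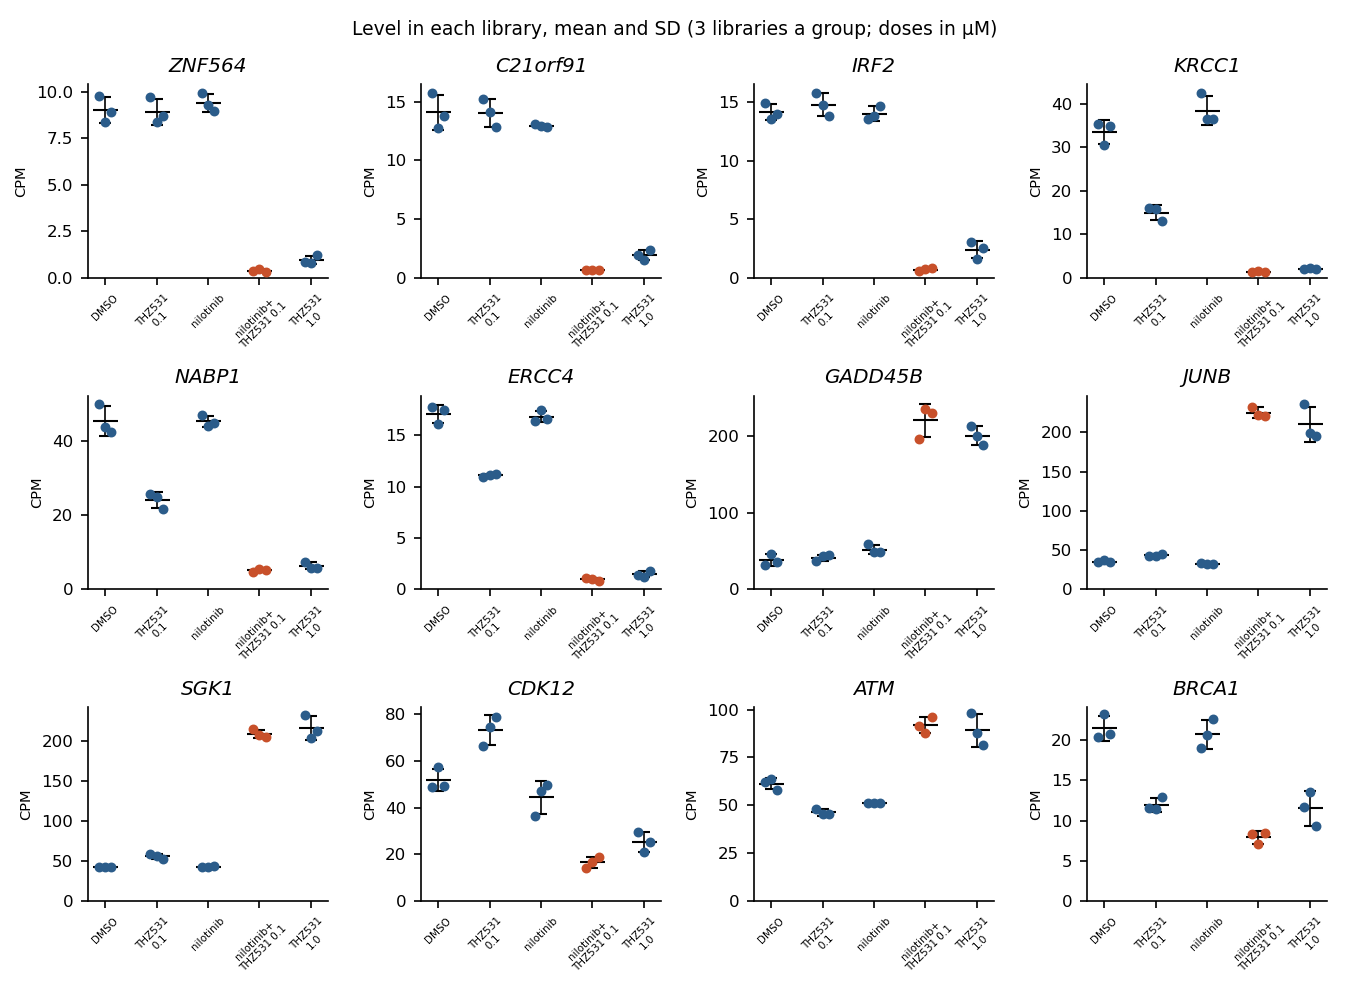
The CPM of 12 genes is plotted for each library (dots) of DMSO, 0.1 µM THZ531, nilotinib, their combination (orange) and 1 µM THZ531, with the mean and SD of the 3 libraries, on axes that start at 0. *ZNF564*, *C21orf91* and *IRF2* are low in the combination and at 1 µM, *KRCC1*, *NABP1* and *ERCC4* already drop in part at 0.1 µM, *GADD45B*, *JUNB* and *SGK1* rise in the combination, and *CDK12* and *ATM* move one way at 0.1 µM and the other way in the combination.

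Seen from the other side, a change at 0.1 µM was carried on by many genes but not by all. Of the 691 genes lower at 0.1 µM, 384 fell further on adding nilotinib at any size, 235 of them beyond a log2 FC of 1. A further 184 did not pass the test in either direction and 123 moved back up. The begun count is tied to the shared 0.1 µM libraries. The combination was therefore also set against nilotinib alone, a contrast that has no library in common with 0.1 µM THZ531 against DMSO and was added after the data were seen. In it 546 of the 691 (79.0%) were lower, against 36.7% of all genes, and 173 of the 286 genes raised at 0.1 µM (60.5%) were higher, against 33.6% of all genes. That contrast measures all that 0.1 µM THZ531 changes in the presence of nilotinib. A gene that moved at 0.1 µM and no further would count in it, so it cannot show how many moved further. Beyond the fold limit the combination lowered 3211 genes (20%) and raised 1092 (6.81%) against nilotinib, and lowered 3336 (20.8%) and raised 1048 (6.54%) against DMSO. At any size the numbers against DMSO were 5974 (37.3%) and 5407 (33.7%). By contrast, 0.1 µM THZ531 alone lowered 119 genes (0.742%) against DMSO beyond a log2 FC of 1. On adding nilotinib, 29 of the 119 fell further by more than a log2 FC of 1, 18 moved back up by as much and 54 did not pass the test. Of the 23 (0.143%) that 0.1 µM THZ531 raised that much, 15 rose further by as much and 3 moved back down by as much.

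*CDK12* itself moved both ways. It was at 48.8, 57.5 and 49.3 CPM with DMSO, at 66.3, 74.7 and 78.9 CPM with 0.1 µM THZ531 and at 14.1, 16.8 and 18.7 CPM with the combination. The rise had a log2 FC of 0.50 ± 0.14 (adjusted p = 0.0393) and the fall one of −2.15 ± 0.14 (adjusted p = 9.32e-11). The other THZ531 target, *CDK13*, fell less, from 75.5, 77.3 and 83.2 CPM to 38.7, 53.7 and 60.4 CPM (log2 FC −0.63 ± 0.17, adjusted p = 0.00275). *ATM*, the kinase that responds to DNA breaks, went the other way. It was at 62.4, 63.6 and 58.1 CPM with DMSO, lower at 48.3, 45.4 and 45.3 CPM with 0.1 µM THZ531 (log2 FC −0.41 ± 0.07, adjusted p = 0.00153), and higher at 91.5, 87.8 and 96.4 CPM in the combination (0.99 ± 0.07, adjusted p = 1.64e-10). *ATM* overlaps *C11orf65* and *BRCA1* overlaps *NBR2*. *BRCA1*, a core gene of homologous recombination, fell in both steps, from 20.4, 23.3 and 20.7 CPM to 11.6, 11.4 and 13.0 CPM (−0.84 ± 0.12, adjusted p = 2.44e-04), and then to 8.26, 7.02 and 8.48 CPM (−0.60 ± 0.12, adjusted p = 1.77e-04). Its second step was −1.22 with scaling to mitochondrial mRNAs, and which step was larger was not tested.

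Stress-response genes were among the rises with clear expression. *GADD45B*, a growth-arrest gene induced by damage and stress, rose from 36.9, 42.9 and 44.3 CPM to 197, 236 and 230 CPM without an earlier shift (log2 FC 2.42 ± 0.13, adjusted p = 5.41e-12). Its relative *GADD45A* rose from 40.1, 41.2 and 39.7 CPM to 155, 170 and 173 CPM (2.04 ± 0.13, adjusted p = 3.68e-11). *GADD45A* was also higher with nilotinib alone (log2 FC 0.66, adjusted p = 0.0266), where replicate 1 stood at 86.4 CPM and the others at 59.1 and 58.3 CPM. Without replicate 1 that value was 0.45 (adjusted p = 0.158). *FOS*, an immediate-early transcription factor, rose from 2.02, 1.97 and 1.51 CPM to 11, 10.4 and 8.68 CPM (2.45 ± 0.21, adjusted p = 3.01e-09). *RASD1*, a small GTPase gene, rose from 1.26, 1.16 and 1.14 CPM to 6.21, 9.41 and 9.28 CPM (2.80 ± 0.21, adjusted p = 7.10e-10). *ARGLU1*, a splicing and coactivator gene (2.22), *IER5L* (2.27), *MB21D2* (1.89) and *B3GNT2* (1.83) were unshifted like *GADD45B*. *FOS*, *RASD1*, *RHOB*, a small GTPase gene (2.04), and the chemokine gene *CCL2* (2.15) were unresolved.

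Few rises had begun at 0.1 µM. Their first steps ranged from 0.31 to 3.91 on the log2 scale with a median of 1.00, and the protein-coding ones with clear expression named here had first steps of 0.31 to 0.43. *SGK1*, a kinase of the stress and glucocorticoid response, was at 42.7, 41.6 and 42.6 CPM with DMSO, at 58.7, 56.0 and 52.0 CPM with 0.1 µM THZ531 and at 214, 207 and 204 CPM in the combination. The steps of 0.39 ± 0.06 (adjusted p = 5.44e-04) and 1.91 ± 0.06 (adjusted p = 2.73e-15) left no overlap between the groups. *JUNB*, an AP-1 transcription factor gene that overlaps *HOOK2*, took the same course from 34.2, 37.0 and 34.9 CPM through 43.0, 42.8 and 45.6 CPM to 233, 222 and 221 CPM (0.31 and 2.36). *CCN2*, a matrix protein gene (0.40 and 1.93), *ID2*, an inhibitor of differentiation factors (0.39 and 2.01), and *KLF4* (0.43 and 1.04) rose in both steps. The second step of *KLF4* was 0.78 with library-size scaling and 0.42 with scaling to mitochondrial mRNAs, both under the fold limit.

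Promoters are shown because those of risers and fallers differed in short motifs. They are given as the 100 bases before the transcription start of the gene's promoter entry (GRCh38.p14), 5′ to 3′ on the gene's strand. For *ZNF609* that start lies inside the span of the gene (chr15:64459578-64686068), so its bases do not precede the outermost start. In capitals is TATAAA in the risers and CCGGAAG, an ETS-factor motif, in the fallers, both searched on both strands. Of 19 named genes that rose and had a promoter entry, 6 held TATAAA in this stretch, and of 16 that fell, 3 held CCGGAAG. Not printed are the risers *CSKMT* (TATAAA from position −28) and *SGK1* (−96, motif on the opposite strand). The shares over all genes were not computed for this stretch of 100 bases, so these numbers have no background beside them.
FOS (chr14:75278728-75278827, plus strand, TATAAA from position −33): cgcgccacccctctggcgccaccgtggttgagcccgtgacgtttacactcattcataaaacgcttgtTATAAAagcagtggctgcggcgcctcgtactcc
GADD45B (chr19:2476027-2476126, plus strand, −31): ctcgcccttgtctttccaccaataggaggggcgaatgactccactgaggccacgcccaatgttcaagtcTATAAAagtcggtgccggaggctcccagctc
JUNB (chr19:12791386-12791485, plus strand, −31): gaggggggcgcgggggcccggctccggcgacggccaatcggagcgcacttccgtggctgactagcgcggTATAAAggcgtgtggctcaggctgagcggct
CCN2 (chr6:131951373-131951472, minus strand, −32): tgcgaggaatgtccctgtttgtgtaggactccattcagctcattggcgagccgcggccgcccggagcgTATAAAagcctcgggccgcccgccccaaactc
WBP1L (chr10:102743848-102743947, plus strand, −19): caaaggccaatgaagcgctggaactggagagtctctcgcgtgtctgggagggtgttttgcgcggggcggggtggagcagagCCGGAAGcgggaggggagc
ZNF175 (chr19:51571183-51571282, plus strand, −18): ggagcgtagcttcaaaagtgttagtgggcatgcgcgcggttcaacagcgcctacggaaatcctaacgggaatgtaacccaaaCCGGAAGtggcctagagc
ZNF609 (chr15:64460478-64460577, plus strand, motif on the opposite strand, −15): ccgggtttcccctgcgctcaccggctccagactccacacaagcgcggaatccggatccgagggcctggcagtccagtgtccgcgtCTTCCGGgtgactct

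Over all 11211 tested protein-coding genes with a promoter entry (250 bases before to 50 after the start), 6.30% held TATAAA. The share was 12.8% of the 399 promoters of higher genes and 4.70% of the 2342 of lower genes. CCGGAAG was in 18.1% of all promoters, in 5.76% of those of higher genes and in 21.95% of those of lower genes. The median number of CpG dinucleotides was 26 over all promoters, 25 in lower genes and 16 in higher genes. These are descriptions of letters in a window and were not tested.

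Zinc finger genes were the group with the largest share of falls. Named ZNF, they mostly encode DNA-binding repressors. Of 456 tested members 303 (66.4%, beside 18.9% of all genes) were lower and 3 higher. Their median log2 FC was −1.51 beside 0.03 for all genes. For 26 members the fall had begun at 0.1 µM. *ZNF839* was one of them and stepped from a mean of 10.3 ± 0.627 CPM through 6.87 ± 0.380 to 0.517 ± 0.117 (log2 FC −0.58 and −3.73). The members share sequence, so reads of near-identical copies could be split between them. Chromosome 19, where many of these genes lie, had the highest share of lower protein-coding genes of all chromosomes (29.1%), and X the lowest (13.0%).

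DNA repair genes fell in part of each pathway, where the share of all genes that were lower was 18.9%. In homologous recombination and the Fanconi anemia pathway, which mend double-strand breaks and crosslinks, 18 of 35 genes (51.4%) were lower and 0 higher, with a median log2 FC of −1.03. *SLX4*, the scaffold of repair nucleases, whose earlier change was unresolved, was at 8.34, 10.8 and 11.8 CPM with 0.1 µM THZ531 and at 0.929, 1.00 and 1.42 CPM in the combination (log2 FC −3.21 ± 0.23, adjusted p = 3.07e-10). *BLM*, a helicase that resolves recombination intermediates, went from 17.2, 18.4 and 17.7 CPM to 3.20, 3.12 and 3.08 CPM (−2.50 ± 0.15, adjusted p = 2.19e-11). *XRCC2* (−2.50) and the nuclease gene *EXO1* (−2.38) were among the 18 as well. None of the 18 had begun at 0.1 µM, although 3 other members were lower there.

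In excision and mismatch repair 9 of 31 genes (29.0%, beside 18.9% of all genes) were lower and 0 higher. They included *ERCC4* (−3.48) and *XPC*, which had both begun, and *ERCC6*, the transcription-coupled repair factor, which went from 10.7, 10.3 and 11.7 CPM to 1.04, 1.06 and 1.34 CPM (−3.25 ± 0.14, adjusted p = 1.32e-13). The glycosylase genes *NEIL3* (−2.57) and *TDG* (−2.23) had not shifted before. Of 24 damage signalling genes, 3 were lower (12.5%), beside 18.9% of all genes, but 8 were with library-size scaling. They were *ATRIP* (−2.997, begun, overlapping *TREX1*), *MDM2* (−2.64) and *CDC25A* (−1.56).

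Among cyclins, E2F factors and their partners, which drive the cell cycle, 13 of 29 genes (44.8%) were lower and 1 higher. Over all genes 18.9% were lower. The median of the list was −0.93, and 0 members had begun. *E2F8* went from 10.7, 11.6 and 11.9 CPM to 0.972, 1.20 and 1.09 CPM (−3.39 ± 0.14, adjusted p = 5.83e-14). Its relatives *E2F7* (−2.67), *E2F2* (−2.22) and *E2F3* (−1.92) and the S-phase cyclin gene *CCNE2* (−2.81, overlapping *INTS8* and *NDUFAF6*) fell too. In DMSO *E2F8* had 11.7, 12.8 and 10.8 CPM, so the DMSO and 0.1 µM THZ531 libraries overlapped.

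The transcription machinery was touched unevenly. The shares of its lists stand beside 18.9% of all genes lower and 6.53% higher. Of 22 cleavage and polyadenylation factors, which cut the transcript and add its tail, 8 were lower (36.4%) and 1 higher. *CSTF2T* fell by 2.90 on the log2 scale, *CSTF1* by 2.36, *CPSF7* by 2.36 and *PAPOLG* by 2.35, with *CSTF1* at 43.2, 41.8 and 38.3 CPM before and 7.36, 7.75 and 8.88 CPM after. Of 30 CDK12/13 and elongation factors 4 were lower (13.3%) and 0 higher, namely *CDK12*, *MEPCE* (−2.37), which caps the 7SK RNA, *CDK9* (−1.01, under the fold limit in some alternative scalings) and *NELFE* (−2.97 ± 1.25, adjusted p = 0.0462, so known only roughly). *CCNK*, the cyclin of CDK12, did not pass the test (0.24 ± 0.12, adjusted p = 0.0854). *POLR2A*, the largest polymerase subunit, rose from 259, 294 and 334 CPM to 361, 547 and 598 CPM (0.76 ± 0.19, adjusted p = 0.00136). Among chromatin remodellers and histone modifiers 12 of 43 were lower (27.9%) and 2 higher, led by the methyltransferase gene *NSD1* (−2.19, begun), *SETD1A* (−1.66), *KAT5* (−1.61) and *KDM5A* (−1.55), and the remodeller gene *SMARCA4* did not pass (−0.05, adjusted p = 0.810).

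Of 35 receptor tyrosine kinase, RAS and MAP kinase genes 4 were lower (11.4%, under the 18.9% of all genes) and 0 higher. *EGFR*, the growth factor receptor, went from 166, 176 and 189 CPM to 53.2, 53.6 and 56.5 CPM (−1.70 ± 0.10, adjusted p = 7.48e-12), and *PIK3R1* (−1.95), *RPTOR* (−1.41) and *PIK3CB* (−1.15) were the others. At any size 16 were lower and 13 higher, and 9 were lower beyond the fold limit with library-size scaling. *SOS1* (−0.87) and *JAK2* (−0.98) fell short of the fold limit. Both passed it with library-size scaling (−1.14 and −1.25) and with scaling to mitochondrial mRNAs (−1.51 and −1.60). Of 32 MAP kinase feedback and immediate-early genes 11 were higher (34.4%, beside 6.53% of all genes) and 2 lower. In this list 4 had begun (*JUNB*, *CCN2*, *KLF4* and *ATF3*). *IER2* rose from 67.1, 62.5 and 68.4 CPM to 187, 211 and 207 CPM (1.61 ± 0.09, adjusted p = 1.39e-11), and *MYC* from 73.4, 71.9 and 74.1 CPM to 144, 153 and 157 CPM (1.04 ± 0.08, adjusted p = 1.34e-09). *MYC* was under the fold limit with library-size scaling (0.78) and with scaling to mitochondrial mRNAs (0.42).

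Among 14 tested target kinases of nilotinib, 3 were lower (21.4%, near the 18.9% of all genes) and 0 higher. *EPHB4*, which overlaps *SLC12A9*, went from 109, 120 and 134 CPM to 17.1, 18.8 and 21.7 CPM (−2.66 ± 0.12, adjusted p = 3.58e-13), *MAPK14* fell by 1.54 and *EPHA4* by 1.25, while *ABL1* did not pass (0.16, adjusted p = 0.402) and the collagen receptor gene *DDR2* rose by 0.36. None of 9 ABC transporter genes passed the fold limit by edgeR, and 5 passed the test at any size, with log2 FCs between −0.78 (*ABCC2*) and 0.86 (*ABCA2*). *ABCG2* was at 29.4, 25.1 and 23.6 CPM with 0.1 µM THZ531 and at 32.0, 26.7 and 24.7 CPM in the combination (0.09 ± 0.12, adjusted p = 0.489). Of 15 BCL2 family genes 3 were lower (20%) and 2 higher (13.3%), beside 18.9% and 6.53% of all genes. *MCL1*, a short-lived survival factor, fell from 291, 277 and 261 CPM to 151, 183 and 184 CPM (−0.68 ± 0.12, adjusted p = 4.02e-05).

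Most genes of the housekeeping groups were higher by small amounts. Cytosolic ribosomal protein genes were higher at any size in 77 of 80 cases (median log2 FC 0.57), nuclear oxidative phosphorylation genes in 74 of 80 (0.54), proteasome genes in 27 of 34 (0.46) and mitochondrially encoded mRNAs in 13 of 13 (0.66), beside 34.3% of all genes. Upward, the fold limit was passed by 1, 1, 0 and 0 of them. Rises this small depend on the scaling. The median over all genes was 0.03 here, −0.23 with library-size scaling and −0.59 with scaling to mitochondrial mRNAs, which holds those mRNAs constant as a group. Replication-dependent histone genes, whose transcripts normally lack a polyA tail, had 17 of 39 members higher beyond it (43.6%) and 0 lower, although only *H1-2* reached the level set for naming (2.66, 2.13 and 2.40 CPM before, 5.26, 5.01 and 4.59 CPM after). The higher histone genes numbered 10 with library-size scaling, 8 (and 1 lower) with scaling to mitochondrial mRNAs and 9 with a minimum of 10 counts. *H1-2* had a log2 FC of 1.05, which was 0.78 and 0.43 in those scalings. Small RNA loci also rose, with 20 of 24 snRNA genes (83.3%), 25 of 49 miRNA loci (51.0%) and 27 of 139 snoRNA genes (19.4%) higher, beside 6.53% of all genes. The median levels of these groups were −2.41, −3.44 and −2.48 log2 CPM. The filter kept genes with enough counts in a single group of libraries. Such loci could thus be admitted through the groups where they were high. How many were was not counted, so these shares do not measure how often small RNA loci rose. With a minimum of 10 counts in every library, 458 genes of all kinds were higher in place of 1047. Of 26 mesenchymal and matrix genes 4 were lower (15.4%, beside 18.9% of all genes), namely *TWIST2* (−1.82), *ZEB2* (−1.66), *THBS1* (−1.51) and *TWIST1* (−1.24), and 15 were higher at any size. Of 21 endoplasmic reticulum chaperone and stress genes 2 were lower (9.52%, *DNAJB9* and *XBP1*), and of 24 genes of the ATF4 response 2 were lower (8.33%, *STC2* and *DDIT3*), with 0 higher in both. Of 25 snoRNA host genes 2 were higher (8%, near the 6.53% of all genes).

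**Figure D3:**
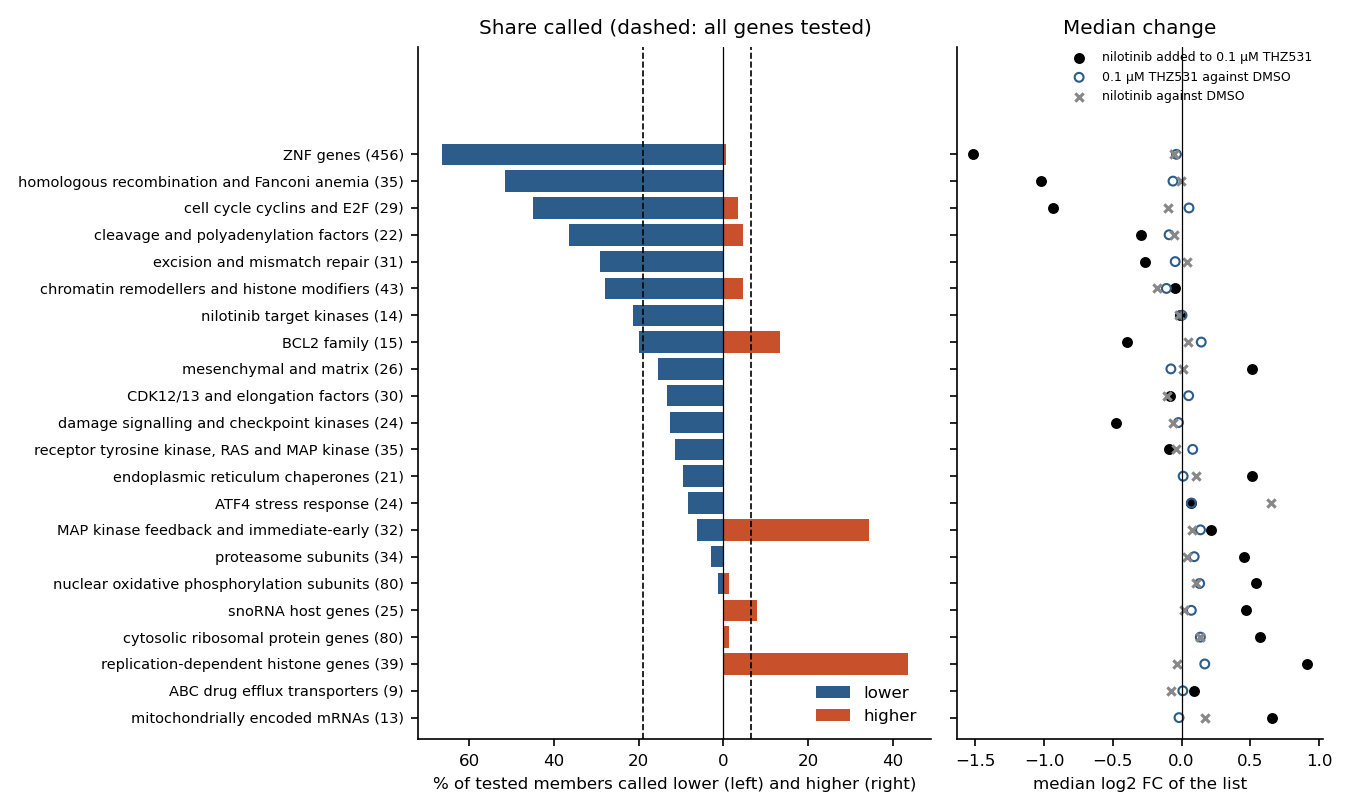
The left panel gives the percent of tested members (number in brackets) of each gene list that were lower (blue, to the left) or higher (orange, to the right) on adding nilotinib to 0.1 µM THZ531, with dashed lines at the 18.9% and 6.53% of all genes. The right panel gives the median log2 FC of each list on adding nilotinib (black), at 0.1 µM THZ531 against DMSO (open circles) and with nilotinib against DMSO (crosses), and the open circles and crosses stay near 0 except for nilotinib in the ATF4 list.

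A THZ531 responder was defined from 1 µM THZ531 against DMSO, a contrast that shares no library with the addition of nilotinib. It lowered 3027 genes (18.9%) and raised 925 (5.77%), or 5902 (36.8%) and 5301 (33.1%) at any size. Of the 3036 genes that fell on adding nilotinib 2431 (80.1%) were also lower at 1 µM beyond the fold limit and 2881 (94.9%) at any size, and of the 1047 that rose 643 (61.4%) were also higher. Seen from the high dose, these were 80.3% of its lower and 69.5% of its higher genes, and 3 genes were called in opposite directions. Among the 2431 shared falls 1449 were unshifted at 0.1 µM, 224 had begun, 746 were unresolved and 12 were opposite. Among the 643 shared rises 38 were unshifted, 26 had begun, 576 were unresolved and 3 were opposite. Of the begun genes, 95.3% of the falls and 89.7% of the rises were called at 1 µM, where both calls share the DMSO libraries. Across all 16036 genes the log2 FCs of both contrasts were correlated (Pearson r = 0.866, Spearman rho = 0.869), which describes genes and not replicates.

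The share of genes that changed on adding nilotinib varied with the size of the change at 1 µM. Of the 103 genes with a log2 FC under −3 at 1 µM, 83.5% were lower on adding nilotinib, with a median of −3.10. Of the 627 genes between −3 and −2, 92.5% were lower, with a median of −2.42. Between −1 and −0.5 it was 20.04% of 2166 genes (median −0.67), and between −0.5 and 0.5 it was 2.08% of 6490. Above 2 it was 84.1% of 427 genes that were higher, with a median of 2.79.

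The combination and 1 µM THZ531 were not the same in every gene. In a direct contrast added after the data were seen, 266 genes (1.66%) were lower in the combination than at 1 µM beyond the fold limit and 144 (0.898%) higher, or 2084 (13%) and 1803 (11.2%) at any size. *IRF2* had 0.540, 0.724 and 0.814 CPM in the combination and 3.04, 1.63 and 2.52 CPM at 1 µM (combination minus 1 µM log2 FC −1.79 ± 0.20, adjusted p = 1.84e-06). *C21orf91* (−1.58), *ZNF564* (−1.29), *WBP1L* (−1.16) and *TDG* (−1.01) were also lower in the combination. They were named for large falls in the same combination libraries, so these differences are descriptions. *FOS* was much higher at 1 µM, at 52.1, 75.4 and 35.5 CPM against 11, 10.4 and 8.68 CPM (−2.44 ± 0.19, adjusted p = 1.01e-07). *MB21D2* (1.37), *RHOB* (1.21), *B3GNT2* (1.15) and *CCN2* (0.80) were higher in the combination. They in turn were named as rises in the same combination libraries, so these differences are descriptions too. *JUNB*, *GADD45B*, *SGK1* and *ATM* did not differ beyond the test (adjusted p = 0.312, 0.520, 0.629 and 0.745).

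Nilotinib without THZ531 changed little. Against DMSO 2 genes (0.0125%) were lower and 4 (0.0249%) higher beyond the fold limit, and 16 (0.0998%) and 39 (0.243%) at any size. The genes that fell with THZ531 present had a median log2 FC of −0.04 with nilotinib alone and those that rose one of −0.01. In the test of the difference itself, the change on adding nilotinib was lower with THZ531 than without it for 2855 genes (17.8%) and higher for 884 (5.51%). They included 2680 of the 3036 falls (88.3%) and 679 of the 1047 rises (64.9%). This test contains the combination and 0.1 µM libraries that picked these falls and rises. With nilotinib alone near 0, much of the overlap was therefore fixed in advance. Without nilotinib replicate 1 the test gave 2819 lower and 904 higher genes. For *ZNF564* the difference was −4.58 ± 0.23 (adjusted p = 2.66e-12) and for *GADD45B* 1.99 ± 0.18 (adjusted p = 2.18e-08). Both genes were named for large changes in the same libraries.

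A few genes also changed with nilotinib alone. *THBS1*, a matrix protein gene that overlaps *FSIP1*, was at 464, 481 and 454 CPM with DMSO, 453, 473 and 534 CPM with 0.1 µM THZ531, 213, 295 and 305 CPM with nilotinib and 134, 176 and 200 CPM with both. It fell by 0.78 ± 0.16 without THZ531 (adjusted p = 0.0280) and by 1.51 ± 0.16 with it (adjusted p = 5.18e-08). Without nilotinib replicate 1 the first value was −0.64 (adjusted p = 0.237) and no longer passed. *PTPRK*, a receptor phosphatase gene, also fell in both settings (−1.51 and −2.02). *ATF4* rose to 261, 116 and 118 CPM with nilotinib (1.02, adjusted p = 0.0266, or 0.52 with an adjusted p of 0.0114 without replicate 1) and to 121, 122 and 127 CPM in the combination from 67.3, 74.5 and 76.8 CPM (0.76, adjusted p = 0.00195). It was at 74.8 ± 4.05 CPM at 1 µM THZ531 and at 81.4 ± 4.07 CPM with DMSO. The median log2 FC of the 24 ATF4 response genes with nilotinib alone was 0.65, and 0.23 without replicate 1.

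Lapatinib, an EGFR and HER2 inhibitor given at 3.16 µM, took the place of nilotinib in another combination with 0.1 µM THZ531, and few genes passed the test between the combinations. Against lapatinib, 8 genes (0.0499%) were lower with nilotinib and 2 (0.0125%) higher beyond the fold limit, and 117 (0.730%) and 118 (0.736%) at any size. *PDK4*, a kinase that restrains pyruvate use, was lower with nilotinib (−1.67 ± 0.27, adjusted p = 0.00324), as were *GPRC5A* (−1.12) and the stress gene *DDIT4* (−1.52). For the deep falls the nilotinib minus lapatinib log2 FC was 0.06 ± 0.22 for *ZNF564*, 0.10 ± 0.17 for *C21orf91* and 0.04 ± 0.13 for *KRCC1* (adjusted p = 0.949, 0.893 and 0.954). The inhibitors were used at different doses.

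The responders differed from other genes in features of their loci. Among protein-coding genes the share of falls was lowest in genes spanning under 5 kb (12.2%), reached 23.9% at 20 to 50 kb and was 15.5% above 200 kb, whereas the share of rises was 11.6% under 5 kb and between 2.12% and 2.55% in the classes above 20 kb. By number of exons the share of falls was 26.8% in genes with 2 to 4 exons and 13.6% in those with 20 or more. By level it was 36.9% at a mean of 2 to 4 log2 CPM and 0.72% above 8. This level is a mean over all libraries, including those of the combination. A fall therefore lowered it and a rise raised it, so level is in part set by the change. Long noncoding RNA genes had fewer falls (7.76% of 1405) and more rises (21.2%) than protein-coding genes (20.6% and 4.01% of 13747). At 0.1 µM alone, where falls of any size were counted, 8.11% of long noncoding and 3.89% of protein-coding genes were lower. Level, exons and span vary together, and their parts were not tested. The filter could admit weakly expressed genes through the groups where they were high, so their shares of rises depend on it.

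**Figure D4:**
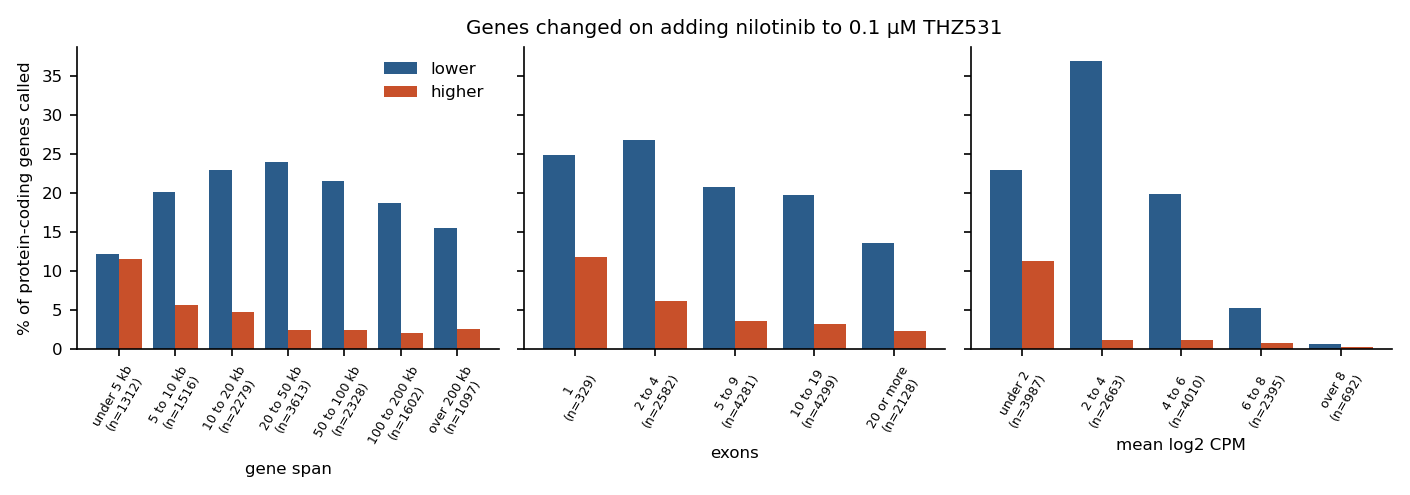
Bars give the percent of protein-coding genes that were lower (blue) or higher (orange) on adding nilotinib to 0.1 µM THZ531. Genes are split by span, number of exons and mean log2 CPM over all libraries, with the number of genes in brackets. Falls peak at 20 to 50 kb, at 2 to 4 exons and at 2 to 4 log2 CPM, and rises are most frequent in the shortest and the least expressed genes.

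Where lower and higher divide depends on what is held constant. The mitochondrially encoded mRNAs, which RNA polymerase II does not make, took 1.22% ± 0.0669 of the counts with 0.1 µM THZ531 and 1.56% ± 0.115 in the combination (SD, n = 3). When libraries were scaled to them in place of TMM, the median gene moved to −0.59, and 5507 genes were lower and 501 higher, so that 91.7% of the called genes were lower in place of 74.4%. Library size alone gave 84.7%, upper-quartile scaling 62.8%, and a minimum of 10 counts in every library 84.9%, with 458 genes higher. The median gene had been at 0.03, so this scaling lowered log2 FCs by about the same amount throughout, and that of *DDR2* went from 0.36 to −0.26. The counts of the gene lists moved with it. Damage signalling genes that were lower numbered 8 with library size and 15 with mitochondrial scaling in place of 3, receptor tyrosine kinase, RAS and MAP kinase genes 9 and 15 in place of 4, and BCL2 family genes 6 and 7 in place of 3. The MAP kinase feedback and immediate-early genes that were higher numbered 4 with mitochondrial scaling in place of 11.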

How the data were processed

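RNA was sequenced from 21 libraries of Hs578T cells (7 groups of 3) as unstranded, polyA-selected, paired-end libraries. Per the labels and the submitters' processing notes, the authors aligned reads to GRCh38 with HISAT2 2.1.0 and made the deposited raw counts per gene with featureCounts; DESeq2 is named too, and the annotation is not given in the sources used here. Between 61.6% and 66.4% of counts from 1 to 20 were even, and whether pairs or single reads were counted was not stated, so counting error may be understated.

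Counts were filtered with filterByExpr, TMM-scaled and fitted with edgeR 4.0.16 (R 4.3.3) quasi-likelihood models with 7 group means over all 21 libraries. Adjusted p-values are Benjamini-Hochberg over 16036 genes, a call needs an adjusted p under 0.05 and an absolute log2 FC over 1, and errors of log2 FCs are SEs. Gene annotation matched RefSeq for 27745 of 28395 genes. Named genes were the largest falls and rises (mean log2 CPM 1 or more), the same among protein-coding genes without an overlap, the begun genes of smallest adjusted p at 0.1 µM, the largest unshifted and opposite changes, at most 4 called members of each list, a fixed set of genes, and those called between the combinations or with nilotinib alone. The genes named otherwise, such as those next to the fold limit and those given in lists as further called or uncalled members, were chosen after their values were seen. The comparison, lists and rules were chosen with earlier results of these data known. The scripts were tested on simulated data. Alternatives covered scaling, filters, tests, DESeq2 1.42.0, a replicate block and leaving out each library.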

Additional observations from a re-analysis of the deposited data

Results flagged for a closer look

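The change on adding nilotinib differed with and without THZ531 for 2855 genes that were lower and 884 that were higher in this test of the difference. Among genes that responded to nilotinib alone (adjusted p under 0.05), the difference in log2 FC was −2.04 for *ARHGAP22*, −1.79 for *DIXDC1*, −1.69 for *LINC01605*, −1.63 for *RAB7B*, −1.45 for *ADM2*, −1.36 for *CORO2B* and −1.24 for *MAP2K6*. It was 2.02 for *TXNIP*, a gene of glucose and stress control, 1.39 for *RHOB*, 1.18 for *PLPP3*, 1.04 for *SCN3A* and 0.84 for *SLC4A8*. Without nilotinib replicate 1, where *TXNIP* stood at 3.33 CPM against 14.8 and 14.6 in the other nilotinib libraries, the difference was 1.61 for *TXNIP* (adjusted p = 1.3e-05) and −0.95 for *ADM2* (adjusted p = 0.0112). Without that library the response to nilotinib alone no longer passed for *ARHGAP22* (adjusted p = 0.12), *DIXDC1* (0.158), *LINC01605* (0.106), *ADM2* (0.27), *PLPP3* (0.0862), *SCN3A* (0.0862) and *SLC4A8* (0.0883), while the difference with and without THZ531 still passed for each of the 12 genes.

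Between the nilotinib and the lapatinib combination, tested directly, the log2 FC was −2.12 for *LOC101928093*, −1.67 for *PDK4*, −1.63 for *FRAS1*, −1.52 for *DDIT4*, −1.43 for *ACTRT3*, −1.41 for *PTGS2*, −1.38 for *ZNF497-AS1* and −1.12 for *GPRC5A*, and 1.10 for *CASS4*. Most were weakly expressed in the nilotinib combination. *LOC101928093*, *FRAS1*, *ACTRT3* and *ZNF497-AS1* had means of 0.072, 0.083, 0.10 and 0.22 CPM there, so their values rest on few counts. *PDK4*, *PTGS2* and *CASS4* had 0.58, 0.61 and 0.69 CPM, *GPRC5A* 1.49 and *DDIT4* 12.6 CPM. *GRM8* had 17 counts over the nilotinib combination libraries and 0 over the lapatinib ones, at least 5.7-fold higher against a floor of 3 counts over the group. Its fitted value of 5.72 depends on the prior count and is no bound.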

How the results depend on the processing

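All values are numbers of genes, lower then higher unless said. Scaling to mitochondrial mRNAs gave 5507 and 501 genes on adding nilotinib (begun 130 and 9, unshifted 3014 and 12, also called at 1 µM 4530 and 343), 4458 and 423 for the difference with and without THZ531, 240 and 41 at 0.1 µM, 5357 and 494 at 1 µM, 4 and 1 with nilotinib alone, and 4 lower against lapatinib. It turned the log2 FC of *CCNK* to −0.39, *ABCG2* to −0.52, *ABL1* to −0.48, *DDR2* to −0.26, *SCN3A* to −0.0596 and *SLC4A8* to −0.17. Upper-quartile scaling turned *BRAF* to 0.0112 and gave 1439 higher at 1 µM and 249 unshifted rises. Library size alone gave 563 higher for the difference, 190 at 0.1 µM and 2 with nilotinib alone, 362 begun falls and 40 unshifted rises. A minimum of 10 counts gave 458 higher on adding nilotinib, 549 for the difference, 369 at 1 µM and 232 in both. Testing against the fold limit itself (glmTreat) gave 480 higher, 1783 and 312 for the difference, 437 higher at 1 µM, and 0 and 0 both with nilotinib alone and against lapatinib. Fits of only the groups compared gave 1043 and 510 at 0.1 µM, 0 and 2 with nilotinib alone, and 1 and 0 against lapatinib. DESeq2 gave 2968 and 1093 on adding nilotinib, 576 higher at 0.1 µM, and 7 and 14 with nilotinib alone. Higher genes against lapatinib numbered 4 with library size, no filter and DESeq2, and 1 with DESeq2's size factors, a minimum of 10 counts and halved counts. The causes were not tested.

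Leaving out 1 library gave 2966 to 3087 and 999 to 1087 on adding nilotinib, 351 to 783 and 114 to 417 at 0.1 µM, 115 to 281 and 15 to 35 begun, 0 to 5 and 1 to 10 with nilotinib alone, and 3 to 13 and 0 to 7 against lapatinib. With a replicate block the counts were 3028 and 1042, with 245 and 27 begun, and no named gene changed its call. Deviations of same-numbered combination and 0.1 µM libraries correlated at 0.589, −0.006 and 0.396 over 8795 genes, so the numbers were not taken as pairs there. With the nilotinib libraries the same-numbered correlations were 0.204 to 0.545, and a block in the combination against nilotinib gave 5928 and 5447 genes at any size in place of 5885 and 5388, with 546 and 173 as before for the genes called at 0.1 µM. Genes under about 1 CPM, most of the rises, had intervals too wide to place at 0.1 µM.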
